A study of Mus musculus with 12 samples.

Results

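The genes described here encode the eukaryotic translation initiation factors of the mouse blastocyst and the proteins named with them. They were chosen by name alone, as every gene whose symbol begins with Eif followed by a digit from 1 to 6, without pseudogenes, which gave 56 of the 34245 genes in the expression table. By factor, 5 belong to eIF1, 6 to eIF2, 5 to eIF2B, 14 to eIF3, 16 to eIF4 and its binding proteins, 4 to eIF5 and 1 to eIF6. Another 4 are the Eif2ak kinases, and the last, Eif2c5, carries an older name of an Argonaute-type gene and had no read in any library. The study followed mouse embryos through blastocyst maturation with and without inhibition of p38-MAPK, a stress- and growth-responsive protein kinase. Embryos of F1 hybrid (C57Bl6 x CBA/W) parents were collected as 2-cell embryos, cultured in KSOM with amino acids to E3.5 and then kept for 4, 7 or 10 h in 20 µM SB220025, which inhibits p38-MAPK (p38-MAPKi), or in the solvent dimethyl sulfoxide (DMSO). Polyadenylated RNA from pools of 30 blastocysts was sequenced, with 2 libraries for each of the 6 groups and 12 libraries in all. The embryos carried no engineered allele, each library came from whole embryos, the labels name no selection by sex, and the solvent groups differed from the inhibitor groups in the compound alone as far as the labels state.

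Initiation begins when the small ribosomal subunit, with eIF1, eIF1A, eIF3 and eIF5, receives the initiator tRNA from eIF2 in its GTP form. The eIF4 factors bind the mRNA cap, unwind the leader and bring the mRNA to the subunit, a step that the 4E-binding proteins (Eif4ebp) block by occupying eIF4E. The Eif2ak kinases phosphorylate eIF2 under stress, which holds back eIF2B, the factor that reloads eIF2 with GTP, and eIF5B and eIF6 act on the joining and release of the large ribosomal subunit.

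Values are RPKM, the reads of a gene scaled to its transcript length and to the reads of the library. Transcript length here was taken first as the merged exons of all annotated isoforms, so it can exceed the length of the mRNA present. Levels can be compared between genes only within that limit. Differences are given on the log2 scale of the deposited values with the standard error (SE) of limma. A gene was tested where at least 2 libraries of the comparison reached 1 RPKM, and called at a Benjamini-Hochberg adjusted p under 0.05 over all genes tested. The libraries held between 11242313 and 24457312 reads, recovered from the steps of the deposited values. The first p38-MAPKi library at 7 h was the shallowest and had a read in 14064 genes, against 16406 to 17708 in the other 11 libraries. Blastocyst markers were present, with the trophectoderm keratin Krt18 at 909 to 1399 RPKM, Nanog of the epiblast at 96.8 to 141 RPKM and Gata6 of the primitive endoderm at 80.9 to 129 RPKM, while the later endoderm marker Gata4 had 1.07 to 3.86 RPKM. The blood markers Hbb-bt and Ptprc had no read in any library, and of 5 markers of cumulus cells 2 (Fshr and Has2) had none, while Amh, Foxl2 and Inha reached at most 0.837, 0.578 and 0.639 RPKM and the 5 summed to 0.0700 to 1.44 RPKM in a library. The values are shares of the sequenced mRNA of whole pools, so that fewer cells of a type and less RNA per cell cannot be told apart.

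Initiation factor mRNAs spanned a wide range of levels in control (DMSO) blastocysts. Eif5a, which encodes a factor that helps ribosomes through difficult peptide bonds, stood highest at 760 ± 43.1 RPKM (SD, n = 6 DMSO libraries), above every other member by more than the spread between libraries. Next came Eif3d at 229 ± 12.2 RPKM and the cap-complex scaffold Eif4g1 at 209 ± 18.3 RPKM. The 14 eIF3 subunit genes ran from 7.77 RPKM (Eif3j2) to 229 RPKM, with a median of 134 RPKM. The eIF4 genes had a median of 41.9 RPKM, and the cap-binding protein gene Eif4e itself, at 13.8 ± 0.521 RPKM, lay far below its inhibitor gene Eif4ebp1 at 109 ± 7.05 RPKM. At the lower end stood the cap-binding paralogs Eif4e1b at 2.03 ± 0.423 RPKM and Eif4e3 at 1.42 ± 0.343 RPKM. Of the eIF2 subunits, the beta subunit gene Eif2s2 (172 ± 15.5 RPKM) was well above the alpha subunit gene Eif2s1 (35.6 ± 1.64 RPKM). The eIF2 kinases were low. Eif2ak1 (HRI, which responds to haem shortage) had 10.6 ± 0.894 RPKM, Eif2ak3 (PERK, which responds to stress of the endoplasmic reticulum) 5.5 ± 0.535 RPKM and Eif2ak4 (GCN2, which responds to uncharged tRNA) 3.35 ± 0.443 RPKM. Eif2ak2 (PKR, which responds to double-stranded RNA) and Eif5a2 stayed under 1 RPKM in every library, at 0.552 ± 0.207 and 0.287 ± 0.110 RPKM in DMSO, and with Eif2c5 were the 3 members not tested. The other 53 were tested in all 9 comparisons, and 54 of the 56 had reads in every library.

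**Figure D1:**
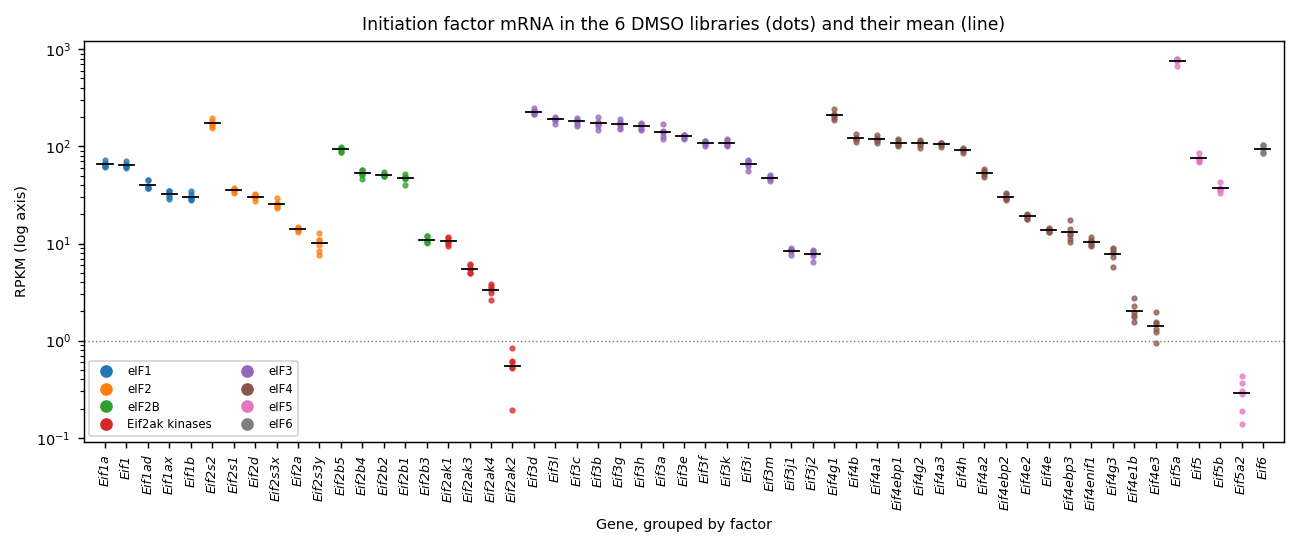
RPKM (log axis) of 55 initiation factor genes in the 6 DMSO libraries, 1 dot per library with a line at the mean, grouped and coloured by factor. Eif5a is highest at 760 RPKM, most eIF3 genes lie between about 100 and 230 RPKM, and Eif2ak2 and Eif5a2 fall under the dotted line at 1 RPKM.

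Many mRNAs of the translation machinery start with a C followed by a run of pyrimidines, a feature that couples their translation to growth signals, so the annotated start sites were read for it. RefSeq (GRCm38.p6) gave a start for 44 of the 56 members, and 3 of them, Eif3f, Eif2s3x and the silent Eif2c5, began with C and held at least 5 bases of C or T in a row from the start base. The same run, read on the strand of the gene, was found at 3 of 57 starts of the members (5.26%) and at 2.51% of all 32851 starts in the table. The windows below hold 10 bases before the start base and 20 from it, with the run in capitals. Eif3f and Eif2s3x are shown for the run, Eif2s3y as the Y-linked copy of Eif2s3x that lacks it at the start base, and Eif4b, Eif1ad and Eif2ak3 because later results turn on them.
Eif3f: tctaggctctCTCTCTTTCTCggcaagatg
Eif2s3x: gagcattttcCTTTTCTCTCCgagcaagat
Eif2s3y: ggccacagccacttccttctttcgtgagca
Eif4b: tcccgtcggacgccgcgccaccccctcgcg
Eif1ad: gctttcgatggcttttgtttctccagcggc
Eif2ak3: agcagacgcacggaaccctcgctcaatggg
The windows lie at chr7:108934405-108934434 (+ strand) for Eif3f, chrX:94212632-94212661 (- strand) for Eif2s3x, chrY:1010585-1010614 (+ strand) for Eif2s3y, chr15:102073763-102073792 (+ strand) for Eif4b, chr19:5366803-5366832 (+ strand) for Eif1ad and chr6:70844505-70844534 (+ strand) for Eif2ak3. Each spans the annotated start, so its last 20 bases are the first of the transcript. Eif3f and Eif2s3x did not share a response to p38-MAPKi, as the log2 change of Eif3f was 0.25, 0.29 and -0.18 at 4, 7 and 10 h and that of Eif2s3x was -0.41, -0.38 and 0.03.

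p38-MAPKi was compared with DMSO at each time point to ask how far the mRNAs of the initiation machinery follow the kinase during blastocyst maturation. No member was called by limma in any of the 9 comparisons, which were the inhibitor at each time, its average, its change between neighbouring times and the course of DMSO, and this makes 0 of 477 gene tests. That count holds for the fit described here, and other settings called members, with the most at 7 h. With a filter at 10 RPKM 8 of 45 members were called there, beside 947 of all 5081 genes tested. In one fit over all 12 libraries 17 of 53 members were called, beside 2586 of all 10940 genes. The smallest adjusted p by limma was 0.0513, for Eif1ad at 7 h. The counts at an unadjusted p under 0.05 are given with each comparison below.

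At E3.5 + 4 h differences were small. With p38-MAPKi 34 members were higher and 19 lower, with a median log2 difference of 0.10 against 0.07 over all 10781 genes tested. Of all genes, 0.909% were called, and 9.42% had an unadjusted p under 0.05. Among the members 3 reached that unadjusted level (2 higher and 1 lower, beside 6.39% and 3.03% of all genes), 0 were called by limma, and 0 by voom on the recovered reads. In 20 members both p38-MAPKi libraries lay above both DMSO libraries and in 3 below, against 26.8% and 13.7% of all genes. After quantile normalization the members split as 23 higher and 30 lower, so the balance of signs at 4 h rests on the scaling.

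At E3.5 + 7 h the members spread widest, in both directions. Among the members 28 were higher and 25 lower, with a median log2 difference of 0.01 against -0.14 over all 10940 genes tested. Of all genes 2.13% were called and 28.4% had an unadjusted p under 0.05, and 15 members (12 higher and 3 lower, beside 10.7% and 17.7% of all genes) reached that unadjusted level. limma called 0 members and voom 11, beside 1726 of 10940 genes called by voom. Both p38-MAPKi libraries lay above both DMSO libraries in 19 members and below in 15, against 23.0% and 38.7% of all genes. The median over all genes moved from -0.14 to 0.05 with median centring and to 0.01 after removal of the trend on transcript length, so the sign of members near 0 can depend on the scaling. The members split as 36 higher and 17 lower with median centring, and as 22 and 31 after quantile normalization.

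At E3.5 + 10 h differences were smaller again and mostly downward. Of the members 39 were lower and 14 higher, with a median log2 difference of -0.12 against -0.02 over all 10959 genes tested, of which 54.3% were lower. Of all genes 0.803% were called and 19.8% had an unadjusted p under 0.05, and 10 members, all lower, reached that unadjusted level, beside 11.6% of all genes lower and 8.26% higher. limma called 0 members and voom 3, which were Eif1, Eif2b2 and Eif4b, each lower, beside 523 of 10959 genes called by voom. Both p38-MAPKi libraries lay below both DMSO libraries in 24 members and above in 4, against 29.6% and 22.6% of all genes. After quantile normalization 33 members were lower and 20 higher.

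**Figure D2:**
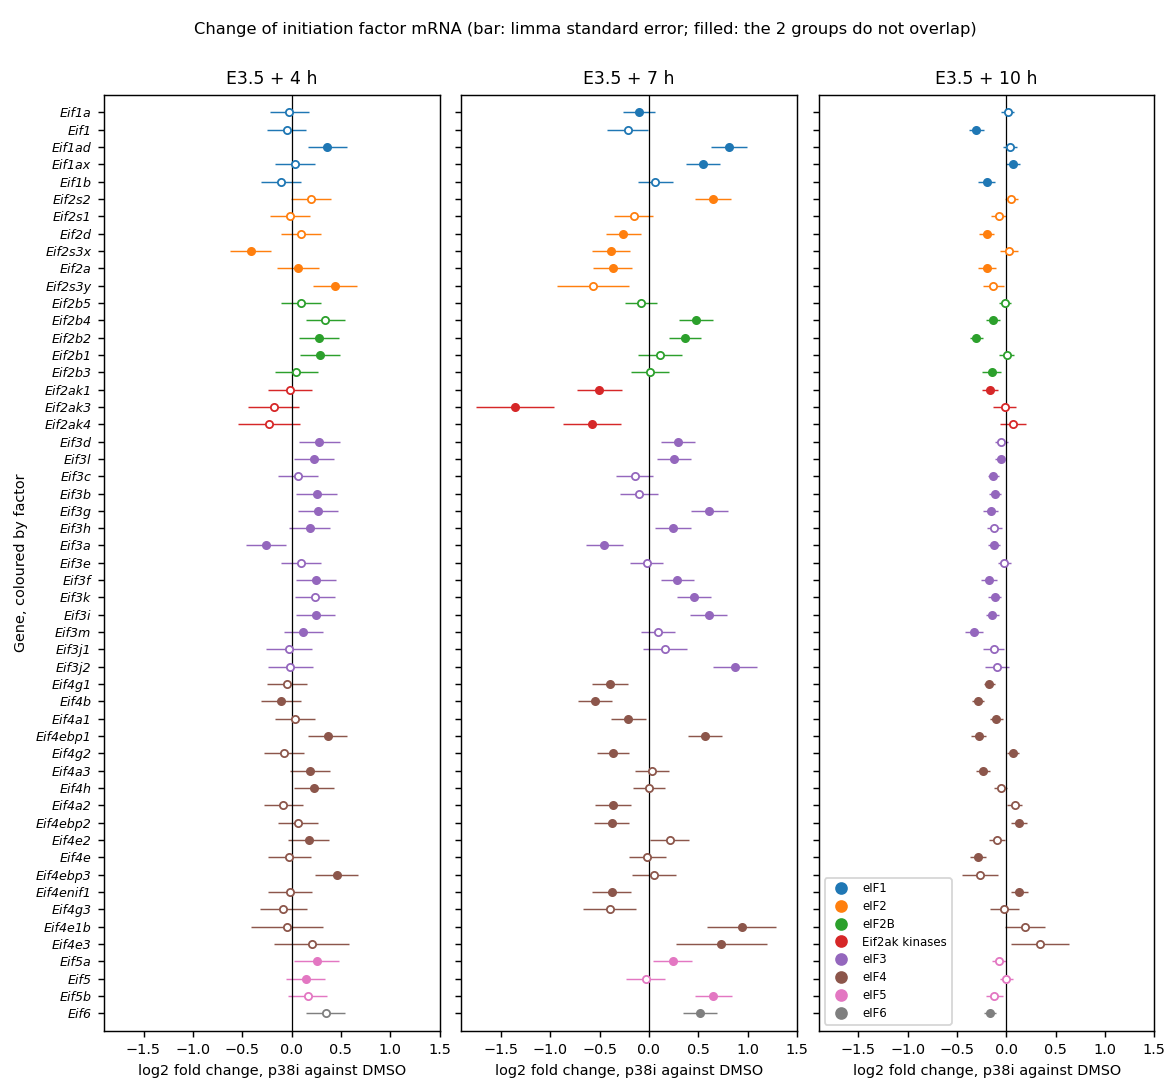
Log2 fold change of p38-MAPKi against DMSO for the 53 tested members at 4, 7 and 10 h, coloured by factor, with bars of 1 limma standard error and filled symbols where the 2 libraries of one group lie outside the range of the other. The 7 h panel is widest, from -1.36 (Eif2ak3) to 0.94 (Eif4e1b), and in the 10 h panel all 14 eIF3 genes lie left of 0.

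The eIF1 and eIF5 groups, formed by gene name, held the member closest to the threshold. Eif1ad, a relative of eIF1A, had 37.5 and 45.4 RPKM with DMSO and 49.4 and 56.9 RPKM with p38-MAPKi at 4 h. At 7 h it had 45.3 and 37.1 RPKM with DMSO and 74.9 and 69.2 RPKM with p38-MAPKi, and at 10 h 39.1 and 36.9 against 38.3 and 39.6 RPKM. The inhibitor libraries were thus higher at 4 and 7 h without overlap, and level with DMSO at 10 h. The log2 difference at 7 h was 0.81 ± 0.18 (SE, 1.76-fold), with an adjusted p of 0.0513 by limma, and it was 0.75 without the shallow first p38-MAPKi library. Eif1ax, an X-linked gene for eIF1A, which steadies the scanning subunit, had 34.6 and 31.5 RPKM with DMSO and 45.3 and 51.0 RPKM with p38-MAPKi at 7 h, a log2 difference of 0.54 ± 0.17 (adjusted p = 0.0891 by limma). Its near-identical copy Eif1a did not show such a gap, at 63.5 and 63.3 against 57.2 and 61.2 RPKM, and reads of copies this close may be shared between them. Eif5b, whose product joins the subunits, had 43.2 and 33.0 RPKM with DMSO and 59.4 and 59.3 RPKM with p38-MAPKi at 7 h, a log2 difference of 0.65 ± 0.19 (adjusted p = 0.0721 by limma). Eif5, the GTPase activator of eIF2, differed by 0.14 at 4 h, -0.03 at 7 h and 0.00 at 10 h, with an interval of -0.48 to 0.42 (95%) at 7 h. Eif5a was higher without overlap at 4 and 7 h, by 0.26 and 0.24, although at 7 h the sign turned to -0.11 after quantile normalization. Eif1, which guards against wrong start codons, stood at 65.2 and 64.8 RPKM with DMSO and 49.7 and 55.7 RPKM with p38-MAPKi at 10 h, a log2 difference of -0.31 ± 0.07 (adjusted p = 0.104 by limma). Its paralog Eif1b differed by -0.20 at the same time, with both inhibitor libraries lower.

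Of the eIF2 subunit genes, the beta subunit was higher with p38-MAPKi at 7 h, while the alpha subunit was near DMSO at all times. Eif2s2 had 196 and 160 RPKM with DMSO and 281 and 274 RPKM with p38-MAPKi at 7 h, a log2 difference of 0.65 ± 0.18 (adjusted p = 0.0695 by limma), against 0.20 at 4 h and 0.05 at 10 h. Eif2s1 differed by -0.01, -0.15 and -0.08 at 4, 7 and 10 h, with overlapping libraries each time. Eif2a and Eif2d, which deliver initiator tRNA by another route, were lower without overlap at 7 and 10 h, with log2 differences of -0.37 and -0.20 for Eif2a and -0.26 and -0.20 for Eif2d, though the sign of Eif2d at 7 h turned to 0.12 after removal of the length trend.

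The gamma subunit of eIF2 is encoded by Eif2s3x on the X and Eif2s3y on the Y chromosome, and at 4 h these copies differed from DMSO in opposite directions. Eif2s3x had 23.2 and 25.8 RPKM with DMSO and 22.5 and 15.1 RPKM with p38-MAPKi at 4 h, a log2 difference of -0.41 ± 0.21 (adjusted p = 0.526 by limma). Eif2s3y had 8.32 and 9.76 RPKM with DMSO and 13.0 and 11.5 RPKM with p38-MAPKi, a log2 difference of 0.44 ± 0.22 (adjusted p = 0.523 by limma). The Y copy made up 26.4% and 27.4% of the summed RPKM of both copies with DMSO and 36.6% and 43.3% with p38-MAPKi. Xist, the X-linked RNA of X inactivation in female cells, was lower at 4 h, from 40.8 and 38.5 RPKM with DMSO to 20.5 and 17.6 RPKM with p38-MAPKi (log2 difference -1.06 ± 0.20, adjusted p = 1.36e-04 by limma). That call rests on the fit, since 0 of all genes were called at 4 h with median centring or quantile normalization. Xist was also lower at 7 h, with 32.0 and 44.2 RPKM with DMSO and 19.0 and 28.3 RPKM with p38-MAPKi. At 10 h it was higher, with 32.3 and 35.1 against 54.1 and 37.8 RPKM. At 7 h the share of the Y copy was 31.7% and 20.5% with DMSO and 33.6% and 15.6% with p38-MAPKi, so libraries of one group differed more than the groups did. Eif2s3y differed by -0.56 at 7 h with both p38-MAPKi libraries, by -1.16 without the first and by 0.04 without the second. At 10 h the share lay between 28.8% and 34.0% in all 4 libraries. Of 4 other sex-linked genes tested, Xist among them, 3 were lower at 4 h and 4 at 7 h. At each time 3 were lower at an unadjusted p under 0.05 by limma, beside 3.03% and 17.7% of all genes. At 4 h the X-linked Kdm5c had 21.3 and 22.2 against 16.5 and 12.9 RPKM. The Y-linked Ddx3y had 6.90 and 9.69 against 10.4 and 10.5 RPKM. Averaged over the times 5 of 5 were lower, with 1 called. The sex of the pooled embryos was not recorded in the labels, and its part in the values of both copies was not tested.

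**Figure D3:**
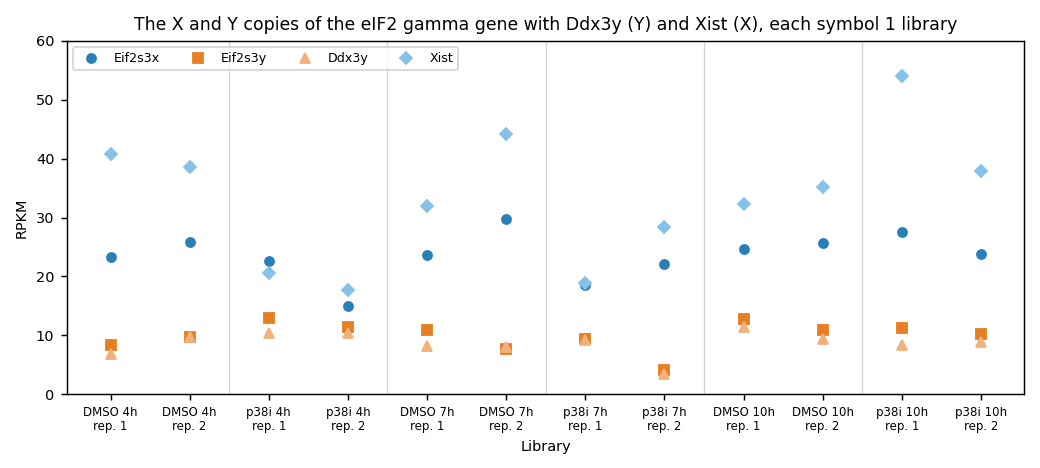
RPKM of the X copy (Eif2s3x) and Y copy (Eif2s3y) of the eIF2 gamma gene in each of the 12 libraries, beside the Y-linked Ddx3y and the X-linked Xist. Eif2s3y and Ddx3y both have their lowest values in the second p38-MAPKi library at 7 h, and Xist is lowest in the p38-MAPKi libraries at 4 h and the first at 7 h.

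The eIF2B genes, whose product reloads eIF2, were on the high side at 4 h and on the low side at 10 h. All 5 were higher with p38-MAPKi at 4 h, with log2 differences of 0.05 to 0.34 and a median of 0.28, and 4 of 5 were lower at 10 h, with a median of -0.13. None of the 5 was called. Eif2b2 (beta subunit) had 52.4 and 50.9 RPKM with DMSO and 65.5 and 67.5 RPKM with p38-MAPKi at 7 h. At 10 h it had 49.0 and 49.9 RPKM with DMSO and 40.8 and 39.3 RPKM with p38-MAPKi. Its libraries thus lay above DMSO at 7 h, with a log2 difference of 0.37 ± 0.16, and below it at 10 h, at -0.30 ± 0.06 (adjusted p = 0.0855 by limma). Eif2b4 (delta subunit) differed by 0.48 ± 0.17 at 7 h and by -0.13 ± 0.07 at 10 h, again on opposite sides without overlap. Eif2b5, the catalytic subunit, differed by 0.10, -0.08 and -0.01 with overlapping libraries, Eif2b1 by 0.29, 0.11 and 0.00 and Eif2b3 by 0.05, 0.01 and -0.15. With quantile normalization 3 of the 5 were higher at 4 h and 3 lower at 10 h.

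At 7 h the eIF2 kinases had the lowest median difference of the factor groups, at -0.58. Eif2ak3 (PERK) had 4.93 and 6.18 RPKM with DMSO and 1.4 and 3.31 RPKM with p38-MAPKi, a log2 difference of -1.36 ± 0.40 (0.390-fold, adjusted p = 0.0756 by limma). The lower of both inhibitor values came from the shallow first library, and the difference was -0.74 without it and -1.98 without the second. Eif2ak3 was near DMSO at 10 h, with 5.40 and 6.08 against 5.49 and 5.83 RPKM. Eif2ak4 (GCN2) had 3.11 and 3.66 RPKM with DMSO and 2.23 and 2.28 RPKM with p38-MAPKi at 7 h (log2 difference -0.58 ± 0.30), and Eif2ak1 (HRI) had 10.6 and 10.4 against 6.17 and 8.92 RPKM (-0.50 ± 0.23). All 3 tested kinases were therefore lower without overlap at 7 h, a time at which 38.7% of all genes were. The 3 genes had transcript lengths, as defined above, of 5670 to 7457 bases. The median difference of all genes of 6001 bases or more was -0.45 at that time. After removal of the length trend the 3 differences were -0.22 for Eif2ak1, -1.05 for Eif2ak3 and -0.20 for Eif2ak4. Eif2ak2 had no read in the shallow library and 0.673 RPKM in the other p38-MAPKi library at 7 h, against 0.528 and 0.536 RPKM with DMSO.

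The genes of eIF3, the large scaffold that links the small subunit with eIF4G, tended higher at 4 and 7 h and were all lower at 10 h in the deposited scaling. At 4 h 11 of 14 were higher with a median log2 difference of 0.20, and at 7 h 10 of 14 were higher with a median of 0.25. At 10 h all 14 were lower with a median of -0.13, 9 of them without overlap, beside 29.6% of all genes. None was called. The order of signs at 4 and 7 h is tied to the scaling, since quantile normalization gave 8 of 14 higher at 4 h and 6 of 14 at 7 h, and removal of the length trend gave 7 of 14 and 9 of 14, while at 10 h quantile normalization left 11 of 14 lower and removal of the length trend 13 of 14.

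Within eIF3, the subunit gene Eif3g had 192 and 167 RPKM with DMSO and 301 and 249 RPKM with p38-MAPKi at 7 h. At 10 h it had 156 and 152 RPKM with DMSO and 130 and 147 RPKM with p38-MAPKi. The log2 difference went from 0.61 ± 0.19 (adjusted p = 0.0822 by limma) to -0.16 ± 0.08. Eif3i, which sits beside Eif3g in the complex, went from 0.61 ± 0.19 at 7 h (71.4 and 55.9 against 102 and 90.8 RPKM) to -0.14 ± 0.07 at 10 h. Eif3j2, one of a pair of near-identical genes for the loosely bound subunit, had 8.34 and 7.92 RPKM with DMSO and 17.9 and 12.4 RPKM with p38-MAPKi at 7 h, a log2 difference of 0.87 ± 0.22 (adjusted p = 0.0614 by limma). Its copy Eif3j1 differed by 0.16 with overlapping libraries, and the split of reads between the copies depends on how multi-mapping reads were counted. Eif3k differed by 0.46, Eif3d by 0.30, Eif3f by 0.29, Eif3l by 0.26 and Eif3h by 0.24 at 7 h, each without overlap, but Eif3d, Eif3h and Eif3l turned to -0.08, -0.03 and -0.01 after quantile normalization. Eif3m was the lowest eIF3 gene relative to DMSO at 10 h, with 49.3 and 43.5 RPKM with DMSO and 34.9 and 39.1 RPKM with p38-MAPKi (log2 difference -0.33 ± 0.09, adjusted p = 0.130 by limma).

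Eif3a, the largest subunit and the platform on which the others assemble, went the other way from most of eIF3 at 4 and 7 h. It had 120 and 140 RPKM with DMSO and 117 and 100 RPKM with p38-MAPKi at 4 h. At 7 h it had 128 and 169 against 105 and 110 RPKM, and at 10 h 143 and 141 against 133 and 126 RPKM. Both inhibitor libraries lay below both DMSO libraries at each time, with log2 differences of -0.26, -0.45 and -0.13. Averaged over the times the difference was -0.28 ± 0.09 (adjusted p = 0.106 by limma, 95% interval -0.48 to -0.08). Eif3b and Eif3c, which form the core with Eif3a, differed by -0.10 and -0.15 at 7 h with overlapping libraries, and Eif3e, at -0.02, had an interval of -0.40 to 0.35.

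In the cap-binding group, Eif4b, the cofactor that stimulates the eIF4A helicase, was the second member below DMSO at every time. It had 110 and 121 RPKM with DMSO and 109 and 106 RPKM with p38-MAPKi at 4 h. At 7 h it had 118 and 133 against 81.7 and 89.7 RPKM, and at 10 h 119 and 122 against 99.3 and 98.5 RPKM. The libraries did not overlap at any of the 3 times, and the gap was widest at 7 h. Its log2 differences were -0.11 ± 0.20 at 4 h, -0.55 ± 0.17 at 7 h (0.684-fold, adjusted p = 0.0869 by limma) and -0.29 ± 0.06 at 10 h (adjusted p = 0.0822 by limma), and the average over the times was -0.31 ± 0.09 (adjusted p = 0.0613 by limma). Eif4b and Eif3a were the 2 of 53 members that lay below at all 3 times (3.77%), beside 4.29% of the 10466 genes tested at each time, and no member lay above at all 3, beside 3.61% of those genes. Eif4b stayed at -0.48 at 7 h without the shallow library and at -0.41 after removal of the length trend.

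The scaffold Eif4g1 had 198 and 241 RPKM with DMSO and 160 and 172 RPKM with p38-MAPKi at 7 h, and 204 and 208 against 183 and 183 RPKM at 10 h. Its log2 differences were -0.05, -0.40 ± 0.18 and -0.17 ± 0.06. After removal of the length trend, at its transcript length of 7227 bases, the value at 7 h was -0.03. Eif4g2, a relative without the eIF4E site, differed by -0.36 at 7 h and 0.07 at 10 h, and Eif4g3 by -0.40 at 7 h with overlapping libraries. Both of these genes of long transcript length turned to 0.11 at 7 h after removal of the length trend. Of the eIF4A helicases, Eif4a1 differed by -0.21 and Eif4a2 by -0.37 at 7 h, both below without overlap, and Eif4a3, the helicase of the exon junction complex, by 0.19 at 4 h, 0.03 at 7 h and -0.24 ± 0.07 at 10 h. Eif4h, like Eif4b a cofactor of the helicase, differed by 0.23, 0.00 and -0.06. The cap-binding protein gene Eif4e had 14.1 and 13.2 RPKM with DMSO and 11.1 and 11.3 RPKM with p38-MAPKi at 10 h, a log2 difference of -0.29 ± 0.08 (adjusted p = 0.138 by limma), after -0.02 at both earlier times. Its paralog Eif4e2 differed by 0.17, 0.21 and -0.10. The low paralog Eif4e1b, known from oocytes, had 1.55 and 2.73 RPKM with DMSO and 4.26 and 3.66 RPKM with p38-MAPKi at 7 h, a log2 difference of 0.94 ± 0.35 (adjusted p = 0.125 by limma), and Eif4e3 had 1.22 and 0.953 against 2.02 and 1.60 RPKM.

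The genes of the 4E-binding proteins did not move as a group. Eif4ebp1 had 101 and 120 RPKM with DMSO and 124 and 162 RPKM with p38-MAPKi at 4 h. At 7 h it had 116 and 104 against 156 and 170 RPKM, and at 10 h 108 and 107 against 83.4 and 94.2 RPKM. It thus stood above DMSO at 4 and 7 h and below it at 10 h, without overlap each time, with log2 differences of 0.37 ± 0.20, 0.57 ± 0.17 (adjusted p = 0.0802 by limma) and -0.28 ± 0.08 (adjusted p = 0.123 by limma). Eif4ebp2 took the opposite course, at -0.38 ± 0.18 at 7 h (28.6 and 29.6 against 20.5 and 24.4 RPKM) and 0.13 ± 0.08 at 10 h (32.0 and 33.0 against 37.5 and 33.7 RPKM). Eif4ebp3 differed by 0.46 ± 0.22 at 4 h (10.4 and 12.1 against 14.3 and 16.6 RPKM), the largest value of any member at that time, and overlapped at 7 and 10 h. Its locus overlaps Ankhd1 on the same strand, so reads of both genes may be counted together. Eif4enif1, which carries eIF4E into the nucleus, differed by -0.38 at 7 h and 0.13 at 10 h.

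Eif6, whose product keeps the large subunit from joining too early, had 102 and 102 RPKM with DMSO and 155 and 138 RPKM with p38-MAPKi at 7 h. At 10 h it had 89.8 and 84.9 RPKM with DMSO and 77.2 and 78.5 RPKM with p38-MAPKi. The sign turned between these times, from 0.52 ± 0.17 (adjusted p = 0.0938 by limma) to -0.17 ± 0.06 (adjusted p = 0.214 by limma).

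**Figure D4:**
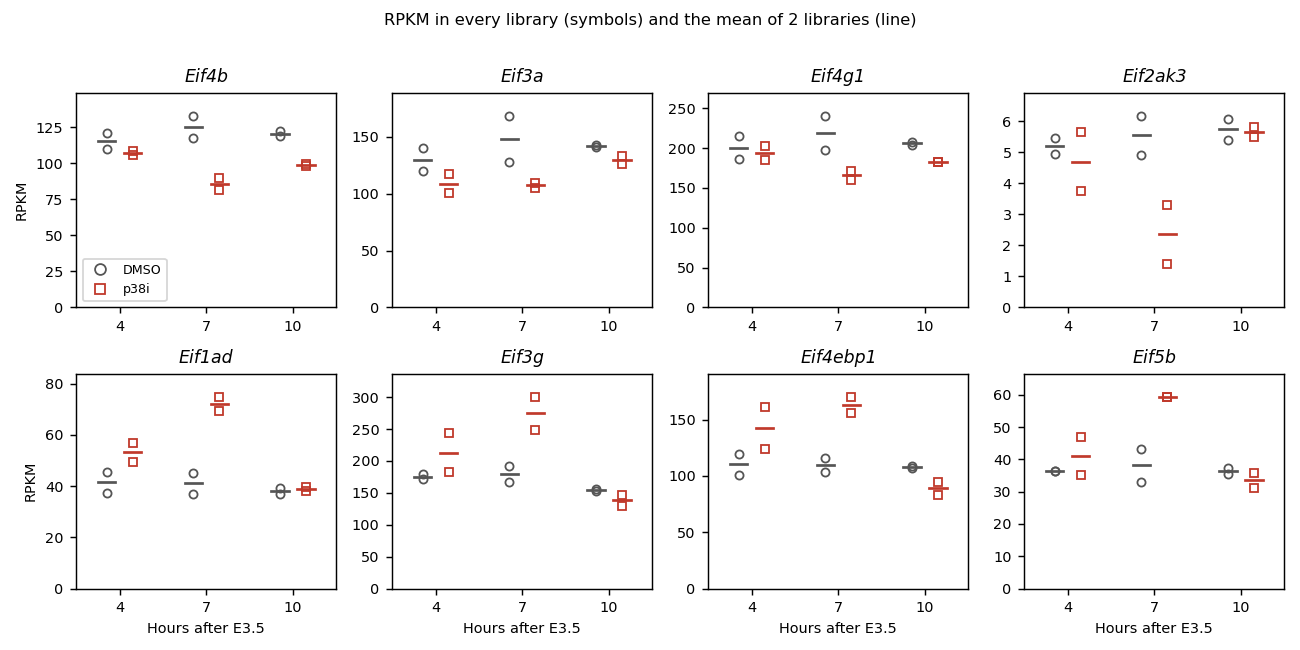
RPKM of 8 members in each library (grey circles DMSO, red squares p38-MAPKi) with a line at the mean of each pair, against hours after E3.5. Eif4b and Eif3a lie below DMSO at all 3 times, Eif4g1 and Eif2ak3 are lowest at 7 h, and Eif1ad, Eif3g, Eif4ebp1 and Eif5b are highest at 7 h and back at or under DMSO at 10 h.

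The change of the effect between time points was tested directly. From 7 to 10 h the p38-MAPKi effect went down in 32 members and up in 21, with a median log2 change of -0.16 against 0.15 over all 11400 genes tested. Of all genes 0.00877% were called by limma and 26.3% had an unadjusted p under 0.05. Among the members 21 (15 down and 6 up, beside 10.4% and 15.9% of all genes) reached that unadjusted level. limma called 0 members, and voom called 10, beside 893 of 11400 genes. The smallest adjusted p by limma was 0.0666, for Eif4ebp1, whose effect changed by -0.85 ± 0.16. The largest fall was that of Eif3j2, at -0.97 ± 0.27 (adjusted p = 0.0858 by limma), a gene whose reads may be shared with Eif3j1. Eif1ad (-0.78), Eif5b (-0.77), Eif3g (-0.77), Eif3i (-0.75), Eif6 (-0.68), Eif2b2 (-0.67), Eif2b4 (-0.61), Eif2s2 (-0.60) and Eif3k (-0.58) came next, all with adjusted p between 0.0690 and 0.0895 by limma. The largest change in the other direction was that of Eif2ak3, at 1.34 ± 0.49 (adjusted p = 0.143 by limma). These tests share the 4 libraries at 7 h with the comparison at that time. In 9 of 53 members (17.0%) the libraries lay above DMSO at 7 h and below at 10 h, beside 6.21% of the 10466 genes tested at each time. These were Eif2b2, Eif2b4, Eif3f, Eif3g, Eif3i, Eif3k, Eif3l, Eif4ebp1 and Eif6, of which 5 are subunits of eIF3. The opposite course was seen in Eif4ebp2, Eif4enif1 and Eif4g2 (5.66%, beside 6.91% of all genes). From 4 to 7 h the effect changed at an unadjusted p under 0.05 in 3 members, Eif3j2 (0.88), Eif2ak3 (-1.18) and Eif2s3y (-1.0), beside 6.83% of all 11311 genes tested, with 0 called by limma or by voom and 0.00884% of all genes called by limma.

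Averaged over the 3 time points, 6 members had an unadjusted p under 0.05, beside 25.0% of all 11590 genes tested, and 2.67% of all genes were called. Of these 6, Eif4b (-0.31), Eif3a (-0.28) and Eif4g1 (-0.21 ± 0.09) were lower, beside 13.9% of all genes, and Eif1ad (0.40), Eif2s2 (0.30 ± 0.11) and Eif4e3 (0.42 ± 0.20) higher, beside 11.1%. Eif4e3 was low, at 0.953 to 2.34 RPKM over all libraries. It overlaps Gm20696 and Gm44104 on the same strand, so their reads may be counted together. limma and voom called 0 members. The median log2 difference was 0.00 for the members and -0.03 for all genes. In the same average the trophectoderm regulators Cdx2 (-0.38 ± 0.08) and Gata3 (-0.51 ± 0.09) fell, with adjusted p of 0.0336 and 0.0169 by limma. Of the 6 trophectoderm markers 3 were higher and 3 lower, with a median of -0.04. Of the 6 epiblast markers 5 were lower and 1 higher, with a median of -0.21. All 4 tested markers of the primitive endoderm were lower, with a median of -0.29. In these 2 lists 0 were called, and 53.8% of all genes were lower. The part of cell lineage in the values of the members was not tested.

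In DMSO few initiation factor mRNAs differed between times in the deposited scaling. From 4 to 7 h 39 members were higher and 14 lower, with a median log2 difference of 0.04 against 0.11 over all 10776 genes tested, and 0 reached an unadjusted p under 0.05, beside 4.79% of all genes. The signs rest on the scaling, since the split was 8 higher and 45 lower with median centring, 14 and 39 after quantile normalization, and 5 and 48 with the length trend removed. From 7 to 10 h 1 member reached it (beside 3.79% of 10873 genes), and from 4 to 10 h 3 members did (beside 15.2% of 10825 genes), with 0 called by limma and by voom in all of these. From 4 to 10 h the 3 became 17 when libraries were centred on their median, 12 after quantile normalization and 18 with the length trend removed. Beside them 1827, 1737 and 1823 of all 10825 genes reached that unadjusted level. The shares of all genes called were 0.492%, 0.0552% and 0.471%. Eif4ebp3 had 10.4 and 12.1 RPKM at 4 h, 11.0 and 12.6 RPKM at 7 h and 17.6 and 14.2 RPKM at 10 h, a log2 difference of 0.50 ± 0.15 from 4 to 10 h (adjusted p = 0.173 by limma). Over the same hours Eif2s3y differed by 0.38 (8.32 and 9.76 to 12.7 and 10.9 RPKM), Eif2ak4 by 0.32, Eif1ax by -0.25 (34.3 and 35.1 to 29.9 and 28.6 RPKM), Eif3j2 by -0.27 and Eif3g by -0.19, each without overlap. Between 4 and 7 h Eif4e3 was lower without overlap, with a log2 difference of -0.67, and Eif2ak1 (0.12), Eif4h and Eif4a3 were higher without overlap. From 7 to 10 h Eif6 differed by -0.22 and Eif4ebp2 by 0.16, without overlap.

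Transcript length, as defined above, ran alongside the differences. Over the 53 members the Spearman correlation of the log2 difference with transcript length was -0.44 at 4 h, -0.47 at 7 h and 0.24 at 10 h, and over all genes it was -0.36, -0.46 and 0.06. These are descriptions across genes of the same libraries, which are not independent replicates. At 7 h the 3 members of up to 1500 bases had a median of 0.06, against 0.44 over all genes of that length, outside the order of the longer classes. The 12 members of 1501 to 2500 bases had a median of 0.33, the 14 of 2501 to 4000 bases 0.10, the 10 of 4001 to 6000 bases -0.29 and the 14 of 6001 bases or more -0.31. All genes in these 4 classes had medians of 0.13, -0.06, -0.24 and -0.45. Eif2s2 (6755 bases) and Eif5b (9753 bases) stood far above the level of their class at 7 h, and Eif4b (3853 bases) and Eif2ak3 (6026 bases) below it. The part of transcript length in the differences of the members was not tested beyond the fit with the length trend removed.

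**Figure D5:**
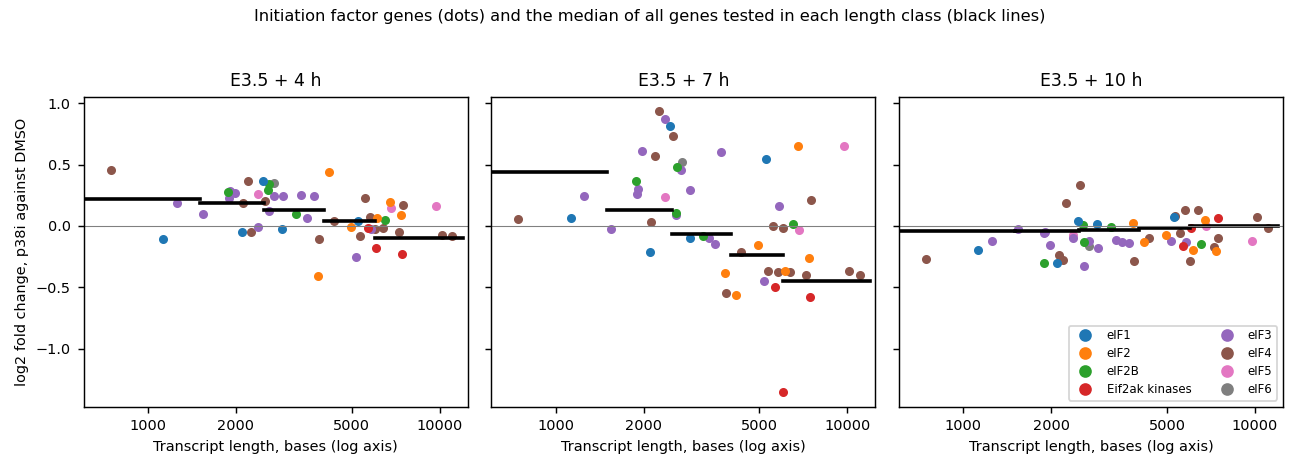
Log2 fold change of p38-MAPKi against DMSO plotted against transcript length in bases (log axis) for the 53 tested members, coloured by factor, at 4, 7 and 10 h, with black lines at the median of all genes tested in each length class. At 7 h the medians fall from 0.44 in the shortest to -0.45 in the longest class and the members scatter widely around them, while at 10 h the lines are flat and most members lie under 0.

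Genes that act on the initiation factors were counted beside them. Of 39 genes of the kinases, phosphatases and binding proteins that regulate initiation, 1 rose and 0 fell at 4 h, 1 rose and 1 fell at 7 h, and 0 rose and 1 fell at 10 h, with medians of -0.01, -0.28 and -0.07. Of all genes 0.909%, 2.13% and 0.803% were called at these times. The gene that rose was Ddit3 (CHOP), a transcription factor that is induced when eIF2 is phosphorylated. It had 5.29 and 7.42 RPKM with DMSO and 13.2 and 16.2 RPKM with p38-MAPKi at 4 h (log2 difference 1.23 ± 0.23, adjusted p = 4.52e-05 by limma), and 8.18 and 6.47 against 21.6 and 18.9 RPKM at 7 h (1.47 ± 0.20, adjusted p = 0.0397 by limma). At 10 h Ddit3 had 6.38 and 7.60 against 12.2 and 11.0 RPKM, again without overlap, and was not called. Averaged over the 3 times, differences in the list ran from -0.69 to 1.14. In that average 1 of the 39 genes was called higher and 1 lower, beside 2.67% of all genes. The calls of Ddit3 at 4 and 7 h rest on the fit. At 4 h 0 of all genes were called with median centring, quantile normalization, no filter, one fit or the length trend removed. At 7 h 0 were called with median centring, no filter, limma without trend or the length trend removed, and 12 with quantile normalization. The gene that fell was Impact, an inhibitor of GCN2, with 14.7 and 14.7 RPKM with DMSO and 7.96 and 7.02 RPKM with p38-MAPKi at 7 h (-0.98 ± 0.19, adjusted p = 0.0461 by limma) and 19.5 and 17.4 against 12.1 and 10.4 RPKM at 10 h (-0.71 ± 0.11, adjusted p = 0.0482 by limma). Mknk1, a kinase of eIF4E that p38-MAPK activates, had 5.58 and 6.02 RPKM with DMSO and 3.06 and 3.22 RPKM with p38-MAPKi at 7 h, a log2 difference of -0.88 ± 0.24 (adjusted p = 0.0656 by limma); it was chosen after its values were seen. Of 15 elongation and termination factor genes 0 were called by limma at any of the 3 times, with 0, 2 and 5 at an unadjusted p under 0.05, beside 9.42%, 28.4% and 19.8% of all genes, and their medians were 0.08, -0.11 and -0.14. At 10 h 12 of these 15 were lower, beside 54.3% of all genes, with the 5 at that level all lower.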

How the data were processed

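The authors sequenced polyadenylated RNA, trimmed reads with Trim Galore 0.4.1, mapped them to GRCm38 with HISAT2 2.0.5, counted them over genes in SeqMonk and deposited log2 RPKM for each of 12 libraries; strand option and treatment of multi-mapping reads are not given in the sources used here. The table holds no spike-in, so values are relative. Library totals and whole reads were recovered from the steps of the values (a gene without a read is written as 0.9 of a read) for 34245 of 34245 genes. The deposited log2 values were tested with limma 3.58.1 (R 4.3.3; lmFit, eBayes with trend) without pseudocount, on genes with at least 1 RPKM in 2 libraries, within the 4 libraries of a comparison, in all 12 with time as a term for the common effect, or in 8 for a change of effect, with Benjamini-Hochberg adjustment over all genes tested. The study's own count model was not repeated, and voom on the recovered reads was the alternative on counts. The tests were checked on simulated data. Labels name replicates but not separate litters or cultures, so p-values measure the spread between these libraries, which may be technical. An exact permutation test of 2 against 2 libraries could not reach 0.05. At 4 h, and for DMSO from 4 to 7 h, limma gave all genes of a level the same variance.

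Of the members, 19 overlap another gene, 4 of them (Eif2a, Eif4e3, Eif4ebp2 and Eif4ebp3) on the same strand, where reads may be counted together. Intervals are 95%. "Without overlap" means that both libraries of a group lie outside the range of the other group. Named with values were members called anywhere, the 3 largest differences per direction and comparison without overlap, and set roles (eIF2, eIF2B, kinases, Eif4e, Eif4a, Eif4g and Eif4ebp genes, Eif1a, Eif1ax, Eif5, Eif5b, Eif6); others were added after their values were seen. Members and lists were chosen with earlier results of these data known. Alternatives were other scalings, filters, a pseudocount of 1, one fit of all libraries, a replicate block, no trend, a loess removal of the length trend, voom on recovered reads, a threshold of 0.1 and leaving out each library. The common effect without the 7 h libraries was added after seeing the data. Figures were drawn with matplotlib 3.10.9 in Python 3.11.15.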

Additional observations from a re-analysis of the deposited data

Results flagged for a closer look

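Listed here is every tested member whose p38-MAPKi libraries lay above both DMSO libraries at one time and below both at another. From above at 7 h to below at 10 h, the log2 effect changed by -0.85 for Eif4ebp1, -0.77 for Eif3g, -0.75 for Eif3i, -0.68 for Eif6, -0.67 for Eif2b2, -0.61 for Eif2b4, -0.58 for Eif3k, -0.46 for Eif3f and -0.31 for Eif3l. In the opposite order it changed by 0.51 for Eif4ebp2, 0.51 for Eif4enif1 and 0.43 for Eif4g2. The limma test of these changes gave adjusted p from 0.0666 (Eif4ebp1) to 0.199 (Eif3l), and none passed. From 4 to 7 h Eif2a went from above to below, a change of -0.43 (adjusted p = 0.661 by limma). From above at 4 h to below at 10 h, the effect changed by -0.64 for Eif4ebp1, -0.58 for Eif2b2, -0.45 for Eif3m, -0.43 for Eif4a3, -0.42 for Eif3g, -0.42 for Eif3f, -0.39 for Eif3i, -0.37 for Eif3b, -0.29 for Eif3l and -0.26 for Eif2a, and these differences were not tested. Turning from above at 7 h to below at 10 h occurred in 6.21% of all genes tested at each time, and the opposite turn in 6.91%. Of the same genes 2.74% went from above at 4 h to below at 7 h, beside 1.89% of the members. From above at 4 h to below at 10 h went 6.84% of these genes, beside 18.9% of the members.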

How the results depend on the processing

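At 7 h the count of members called, 0 in the reported fit, was 8 with a filter at 10 RPKM and 1 (Eif1ad) with a pseudocount of 1. It was 17 in one fit of 12 libraries, 12 with the replicate block, 11 with voom and 11 at a threshold of 0.1. At 10 h it was 3 with voom and 2 at 0.1. For the common effect it was 1 with median centring and 1 with quantile normalization (Eif4b both times), 2 in one fit, 2 without the length trend and 2 at 0.1. For the change from 7 to 10 h it was 8 at 10 RPKM, 10 with voom, 11 at 0.1 and 0 to 13 on leaving out 1 library (10 without the first DMSO library and 13 without the second p38-MAPKi library at 7 h), and from 4 to 7 h 0 to 1 (Eif2ak3 without the second p38-MAPKi library at 7 h). For DMSO from 4 to 10 h it was 1 (Eif4ebp3) at 10 RPKM, beside 276 of 5036 genes, and 1 with the replicate block, beside 536 of 10825 genes. Counts on leaving out 1 library are not given, since 1 library then remains in a group and shows no spread. With median centring the median log2 difference of the members at 7 h was 0.21 (0.01 as reported), the median change from 4 to 7 h 0.14 (-0.08), that from 7 to 10 h -0.36 (-0.16) and that of DMSO from 4 to 10 h -0.11 (0.02). Quantile normalization put the median at 10 h at -0.041 (-0.12 as reported) and the change from 7 to 10 h at 0.074 (-0.16). Removal of the length trend put the change from 4 to 7 h at 0.10 and DMSO from 4 to 10 h at -0.13. On leaving out 1 library the median change from 7 to 10 h ranged from -0.23 to -0.033, the latter without the first p38-MAPKi library at 10 h. Over all genes at 7 h, 233 were called in the reported fit and 12 with quantile normalization. With median centring, no filter, limma without trend or the length trend removed, 0 were called. The count was 2023 with the replicate block, 1726 with voom and 947 at 10 RPKM. With a pseudocount of 1 it was 509, in one fit 2586, and at a threshold of 0.1 it was 1673. At 10 h it was 523 with voom and 516 at 0.1. For the common effect it was 584 with median centring, 685 with quantile normalization and 1175 in one fit. It was 639 without the length trend and 941 at 0.1. For the change from 7 to 10 h it was 538 at 10 RPKM, 893 with voom and 1176 at 0.1. Same-numbered libraries did not deviate together (correlation from -0.286 to 0.166 over 15 pairs of groups), so the numbers are not taken as pairs. With 2 libraries a group, and the shallowest among the p38-MAPKi libraries at 7 h, differences smaller than the intervals could not be resolved.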
